A study of Mus musculus and Acomys cahirinus with 25 samples.

Results

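Bulk RNA-seq of the dermis of laboratory mouse wounds was compared between the wound center and the wound margin on post-wound day 14, with 2 libraries of wild-type center dermis against 2 of wild-type margin dermis among the 25 libraries of the series. The 4 libraries were chosen by their labels and library names (tissue dermis, genotype WT, region Center or Margin), and no measured value entered the choice. Another 3 wild-type center dermis libraries, which the study set against K14-Cre-Twist1 dermis, did not enter the comparison. The study names wild-type Twist1+/+ mice as controls of its transgenic work, so these 3 may come from another mouse line. Where they replace the center libraries below, mouse line, sex-linked reads and set cannot be told apart. The study names C57BL/6J as its primary mouse. The mice received a square full-thickness excision on the back at 4 weeks of age, which healed by secondary intention. No group compared here between center and margin carried a transgene. Center samples were punched out of the middle of the wound, and each margin sample could hold everything outside the punch. The tissue layers were split by hand, not by a sort. The study describes its bulk RNA-seq replicates as independent, and the labels do not say which mouse each library came from.

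Large wounds of laboratory mice form new hair follicles in the center and not at the margin, and the study asked what sets the center apart. The dermis of such a wound is filled by fibroblasts that lay down collagen and other matrix, by macrophages and by new vessels, and new follicles need dermal cells that gather under an epidermal placode as a dermal condensate, the forerunner of the dermal papilla. Grown hair follicles carry an inner root sheath and a hair shaft, which are built from their own set of keratins and keratin-associated proteins.

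Reads assigned to genes numbered 22067305 and 19413261 in the center libraries, and 23219721 and 22190444 in the margin libraries. Levels are given center first where a pair of values stands against another, as CPM, read counts relative to the TMM-scaled library size, and 3 counts, taken as the smallest detectable amount, were between 0.128 and 0.155 CPM (counting error only). A check for 1 library deposited under different names found none, with a chi-square per degree of freedom of 82.1 for the center pair and 61.0 for the margin pair. All 4 libraries held reads of the Y-linked genes Ddx3y and Eif2s3y and none of Xist, whereas the 3 other center libraries held Xist and no read of those Y-linked genes. Matrix genes were high under the dermal label, and the fibrillar collagen genes summed to between 97722 and 175148 CPM in the 4 libraries. Markers of skeletal muscle, neutrophils and lymphocytes were low in each of the 4 libraries (summed levels of at most 63, 101 and 49.1 CPM).

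Of 24500 genes in the table, 14698 were tested, and 125 of them (0.850%) differed between center and margin at an FDR under 0.05 (quasi-likelihood test of edgeR). The 17 genes that were higher in the center (0.116% of those tested) were led by the macrophage elastase gene Mmp12 and by interferon-stimulated genes. Of the 108 genes that were lower (0.735%), 35 stood on the lists of keratinocyte, cornified envelope, hair follicle and keratin-associated protein genes and 4 on that of cholesterol synthesis. All 17 higher genes were measured above the low-count filter in both regions, whereas 59 of the 108 lower genes passed that filter only through the margin and 28 had no read in either center library. A gene that reached the filter only in the margin had to differ, and among the 12320 genes at the filter level in both regions 17 were called higher (0.138%) and 49 lower (0.398%). The groups did not overlap in any of the 125 genes, as in 44.9% of all genes tested. Leaving out margin library 2 left 19 calls, 18 of them among the 125, and leaving out margin library 1 left 52 calls, 49 of them among the 125. Without center library 1 there were 201 calls and without center library 2 there were 241. At an unadjusted p under 0.05 there were 2329 genes (15.8%), 751 higher (5.11%) and 1578 lower (10.7%), and DESeq2 called 183 genes higher and 555 lower at the same FDR.

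**Figure D1:**
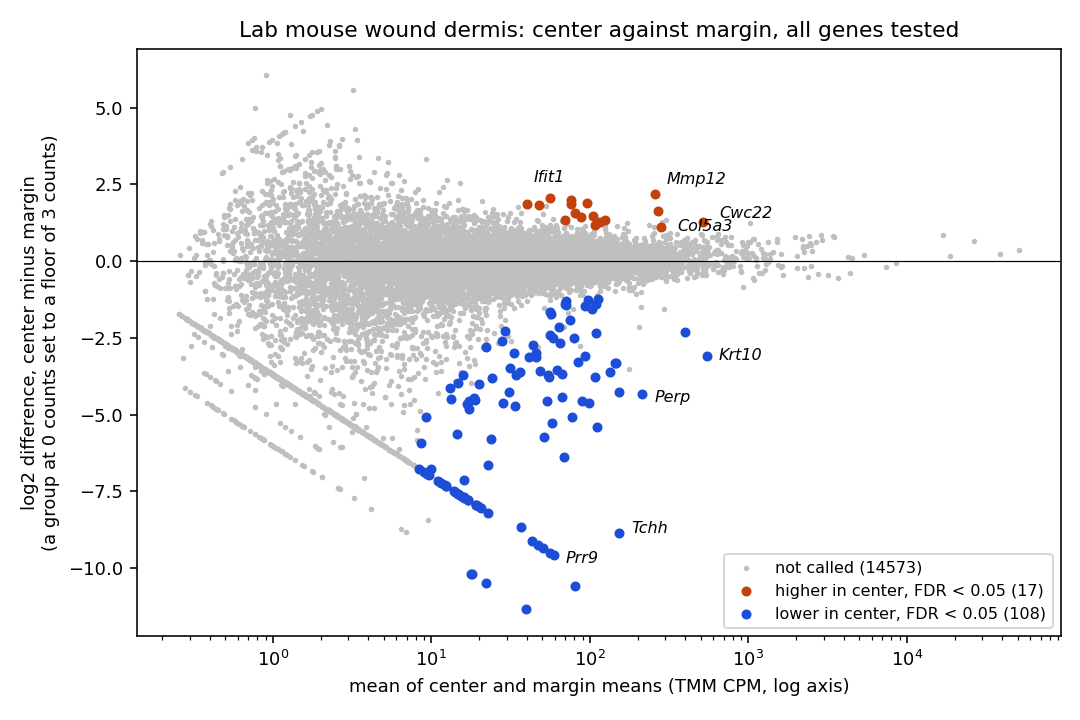
Each point is one of the 14698 genes tested, with its mean level in CPM on a log axis and its log2 difference of center minus margin dermis, where a region without reads was set to 3 counts. The 17 genes called higher in the center lie between 1.12 and 2.20, while the 108 called lower reach far below zero, many along the diagonal of genes with no read in the center.

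Interferon-stimulated genes, which cells switch on after sensing interferon, made up 7 of the 17 genes that rose in the center. Irf7, the transcription factor that amplifies the interferon response, was at 139.9 and 164 CPM in the center libraries and 44.1 and 37.4 CPM in the margin libraries. Ifit1, which binds foreign RNA, was at 98.8 and 80.9 CPM in the center libraries and 25 and 18.3 CPM in the margin libraries, and the ubiquitin-like Isg15 at 75.6 and 74.3 CPM in the center libraries and 23.4 and 18.8 CPM in the margin libraries. In each of these genes both center libraries lay above both margin libraries, by 3.73-fold, 4.16-fold and 3.55-fold (log2 difference 1.90 ± 0.23 SE, FDR = 0.00397 for Irf7, log2 difference 2.06 ± 0.29 SE, FDR = 0.00807 for Ifit1, log2 difference 1.83 ± 0.28 SE, FDR = 0.013 for Isg15). The largest changes were chosen among genes without overlap, so this gap was required, and 44.9% of all genes tested had no overlap. Ifi27l2a was at 141 and 102 CPM in the center libraries and 30.6 and 30.5 CPM in the margin libraries (log2 difference 1.99 ± 0.26 SE, FDR = 0.00535). Lgals3bp, which codes for a secreted galectin-binding protein, was at 448 and 366 CPM in the center libraries and 156 and 107 CPM in the margin libraries (log2 difference 1.63 ± 0.23 SE, FDR = 0.00807). Bst2, the tether of budding virus, and Oasl2, of the oligoadenylate synthetase family, rose by 2.7-fold and 2.55-fold, with an FDR of 0.031 and 0.0487. The summed level of 40 interferon-stimulated genes, a list drawn up after values were seen, was 4182 and 3781 CPM in the center and 2231 and 1685 CPM in the margin. Of these 40 genes, 7 were called higher against the 0.116% of all genes tested, 27 had an unadjusted p under 0.05 in that direction, and all 40 had a positive difference, with a median log2 difference of 1.01 against -0.034 over all genes. Since the list was drawn up with the values known, its counts and median describe it and are no further support. With the 3 other wild-type center libraries in place of these, the differences were 0.64 for Irf7, 1.97 for Ifit1 and 0.63 for Isg15, and of the 7 genes Lgals3bp alone kept an FDR under 0.05 (0.0324). In bulk libraries, more cells of a type and more RNA per cell cannot be told apart.

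The promoter windows of Ifit1 and Isg15 are shown because these genes moved together and both carry the core of the interferon-stimulated response element, GAAA followed by any 2 bases and GAAA again, on either strand. They span the 250 bases before the transcription start in RefSeq on GRCm38.p6, 5′ to 3′ in the sense of the gene, with each match in capitals. The Ifit1 window lies at chr19:34640639-34640888 on the plus strand and holds 2 matches. The Isg15 window lies at chr4:156200819-156201068 on the minus strand and holds 3 overlapping matches.
Ifit1: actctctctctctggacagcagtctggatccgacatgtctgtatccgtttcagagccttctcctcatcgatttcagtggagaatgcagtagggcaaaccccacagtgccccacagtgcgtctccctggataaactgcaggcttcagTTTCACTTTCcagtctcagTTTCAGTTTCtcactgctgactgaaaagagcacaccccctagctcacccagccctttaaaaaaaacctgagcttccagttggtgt
Isg15: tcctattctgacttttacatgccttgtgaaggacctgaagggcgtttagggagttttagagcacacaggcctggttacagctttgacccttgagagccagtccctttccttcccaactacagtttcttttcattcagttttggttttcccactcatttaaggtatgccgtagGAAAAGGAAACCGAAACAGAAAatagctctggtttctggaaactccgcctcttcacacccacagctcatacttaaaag
Such a match stood in 12 of the 30 interferon-stimulated genes that had a window (40.0%), in 368 of 11135 tested genes with a window (3.30%) and in 2.98% of all 32851 windows. Of the 6 called genes that had a window, Ifit1, Isg15 and Bst2 had a match. A match describes these letters only and is not a measured binding site.

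Mmp12, the elastase of macrophages, showed the largest rise of the genes called higher. It was at 394 and 451 CPM in the center libraries and 109 and 75.2 CPM in the margin libraries, a 4.6-fold rise (log2 difference 2.20 ± 0.22 SE, FDR = 0.00148), with the groups well apart. Set against the same margin libraries, the 3 other wild-type center libraries gave Mmp12 a difference of -0.43 (FDR = 0.556), so that the direction turned with the choice of center libraries. Itgb2, the beta subunit of leukocyte integrins, was at 128 and 178 CPM in the center libraries and 58.5 and 52.9 CPM in the margin libraries (log2 difference 1.46 ± 0.24 SE, FDR = 0.0169). Adam8, a membrane metalloprotease of leukocytes, was at 139.6 and 102 CPM in the center libraries and 44.1 and 38 CPM in the margin libraries (log2 difference 1.56 ± 0.25 SE, FDR = 0.0162), and the chemokine gene Ccl9 at 163 and 138 CPM in the center libraries and 73.9 and 58.2 CPM in the margin libraries (log2 difference 1.19 ± 0.23 SE, FDR = 0.0408). In these 3 genes both center libraries lay above both margin libraries, where 44.9% of all genes tested had no overlap between the groups. With the 3 other center libraries the difference of Ccl9 was 0.10 (FDR = 0.829), while Itgb2 and Adam8 kept an FDR under 0.05. Of the 19 macrophage markers, 5 had an unadjusted p under 0.05 and a higher level in the center, against 5.11% of all genes, and 1 had a lower level, against 10.7%. None had an FDR under 0.05 in edgeR's test. In DESeq2, 2 had one, both higher, where that test called 183 of all 14698 genes higher. The 5 were the lysosomal glycoprotein gene Cd68 (163 and 180.0 against 90.4 and 94.6 CPM, FDR = 0.0762), Gpnmb (260.0 and 609 against 182 and 164 CPM, FDR = 0.107), the lipid receptor gene Trem2, the integrin gene Itgam and the efferocytosis receptor gene Mertk, with log2 differences between 0.73 and 1.33. The 1 lower marker was Arg1, the arginase of alternatively activated macrophages, with 0 and 0.413 CPM in the center and 4.94 and 5.28 CPM in the margin (FDR = 0.194), and it reached the filter only in the margin. The difference of Arg1 turned to 2.53 with the 3 other center libraries. With those libraries Cd68 (2.22), Gpnmb (1.52), Trem2 (1.10) and Itgam (1.68) had an FDR under 0.05, and Mertk (0.57) did not. That set called 1315 of 15041 genes higher. The summed level of the 19 markers was 5008 and 6022 CPM in the center and 3562 and 4487 CPM in the margin, and its part in the rise of Mmp12 and of the interferon-stimulated genes was not tested.

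**Figure D2:**
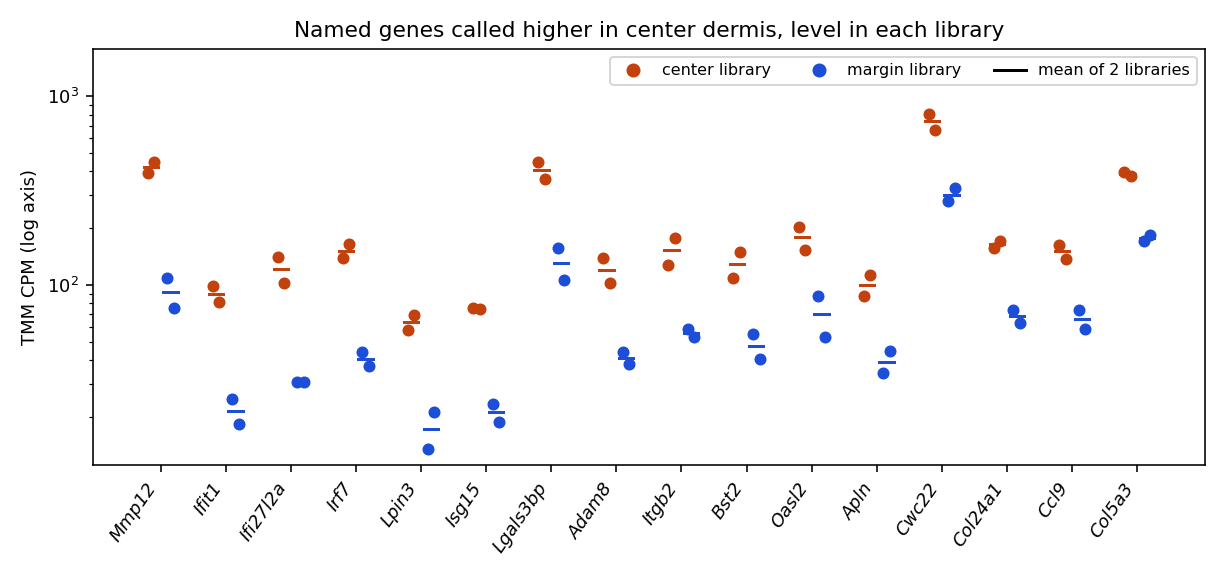
The level in CPM, on a log axis, of 16 of the 17 genes called higher in center dermis, with 1 point for each of the 2 center and 2 margin libraries and a bar for the mean. Both center points lie above both margin points in each gene, and the gap is widest in Mmp12. The groups did not overlap in any of the 125 called genes, as in 44.9% of all genes tested.

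Apln, which codes for the vessel-growth peptide apelin, rose by 2.55-fold (FDR = 0.0467), and Lpin3, a phosphatidate phosphatase gene, by 3.65-fold (FDR = 0.0258). The 30 genes on the list of the TGF-beta and BMP pathways had a median log2 difference of 0.029. For Lpin3 the difference with the 3 other center libraries was 0.46 (FDR = 0.401). Cwc22, a splicing factor gene, was at 810.0 and 666 CPM in the center libraries and 278 and 325 CPM in the margin libraries (log2 difference 1.29 ± 0.20 SE, FDR = 0.012). Its difference was -0.41 (FDR = 0.117) with the 3 other center libraries, so the value is uncertain. The copies of Cwc22 vary among mouse strains, and their part in either value was not tested.

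Among collagen genes, 2 rose in the center at the FDR, and further ones were higher at an unadjusted p. Col5a3, a chain of the type V collagen that seeds fibrils, was at 398 and 377 CPM in the center libraries and 172 and 184 CPM in the margin libraries. Col24a1, a minor fibrillar collagen gene, was at 157 and 172 CPM in the center libraries and 74 and 63 CPM in the margin libraries. Both center libraries exceeded both margin libraries in these 2 genes, the only 2 of the 17 tested collagen genes on the list with an FDR under 0.05 (log2 difference 1.12 ± 0.18 SE, FDR = 0.0162 for Col5a3, log2 difference 1.26 ± 0.21 SE, FDR = 0.0188 for Col24a1). With the 3 other center libraries the differences were 2.02 and 1.23, both with an FDR under 0.05. Another 5 collagen genes had an unadjusted p under 0.05, Col5a1, the type VI chains Col6a1, Col6a2 and Col6a3, and Col27a1, with log2 differences between 0.59 and 0.84. These 5 had an FDR under 0.05 with the 3 other center libraries, and Col1a1 and Col3a1 did not. Together with Col5a3 and Col24a1 they make 7 of 17, all higher, against 5.11% of all genes, and the median of the list was 0.50. Col1a1 was at 36239 and 29108 CPM in the center and 25626 and 15353 CPM in the margin (FDR = 0.439). For Col3a1 the levels were 61979.7 and 52263 against 48075 and 40648 CPM (FDR = 0.737). Although both center libraries stood above both margin libraries in these 2 major chains, the differences did not pass the test. Of all genes tested, 44.9% had no overlap between the groups.

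Of 21 genes for collagen processing and crosslinking, 11 had an unadjusted p under 0.05 and all 11 were higher in the center, against 5.11% of all genes, with a list median of 0.48. No gene of this list had an FDR under 0.05 in edgeR's test. In DESeq2, 7 had one, all higher, where that test called 183 of all 14698 genes higher. Adamts14, which trims the amino end of procollagen, was at 97.1 and 112 CPM in the center libraries and 55.1 and 42.4 CPM in the margin libraries (log2 difference 1.10 ± 0.24 SE, FDR = 0.0757). Plod3, a lysyl hydroxylase gene, was at 138 and 152 against 82.9 and 88.5 CPM, P4ha1, a prolyl hydroxylase subunit gene, at 208 and 215 against 136 and 143 CPM, and the collagen chaperone gene Serpinh1 at 3236 and 3264 against 2141 and 2088 CPM, center first. In each, both center libraries were above both margin libraries, with an FDR of 0.141, 0.194 and 0.217, while 44.9% of all genes tested had no overlap. With the 3 other center libraries the FDR was 0.00227 for Plod3, 0.727 for P4ha1, 0.0995 for Serpinh1 and 0.0588 for Adamts14. Among 21 matricellular genes, Postn (periostin) was at 24955 and 18276 CPM in the center and 11301 and 12818 CPM in the margin (FDR = 0.241), and Fn1 (fibronectin) at 2599.8 and 2846 against 1816 and 1446 CPM (FDR = 0.164). Nov, of the CCN family, went the other way, with 106 and 114 CPM in the center and 182 and 439 CPM in the margin (FDR = 0.0842). Among 24 genes of small proteoglycans and elastic fibres, 4 had an unadjusted p under 0.05 on the higher side, against 5.11% of all genes, and 2 on the lower, against 10.7%, Bgn (biglycan) at 2964 and 2930.0 against 2097 and 1972 CPM and Lum (lumican) at 3137 and 2801 against 4349 and 4422 CPM being examples of each. The mesenchymal filament gene Vim was at 4507 and 4239 against 2545 and 2367 CPM (FDR = 0.129). None of these named matricellular, proteoglycan and filament genes had an FDR under 0.05. With the 3 other center libraries Fn1, Bgn, Lum and Nov had one in the same direction, and Postn and Vim did not.

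Apart from Mmp12, the matrix metalloproteinases and their inhibitors showed no common direction at the FDR. Of 18 tested, 4 had an unadjusted p under 0.05 and a higher level in the center, Mmp12 included, against 5.11% of all genes, and 2 had a lower level, against 10.7%. Mmp19 was at 167 and 316 CPM in the center and 92.1 and 113 CPM in the margin (FDR = 0.0865). Mmp10 (stromelysin-2) was at 10.4 and 10.7 against 1.55 and 3.49 CPM (FDR = 0.24), and the gelatinase gene Mmp9 at 31.2 and 41.9 against 25.7 and 7.45 CPM (FDR = 0.293). The 2 lower genes were Mmp3 (stromelysin-1), at 147 and 123 against 161 and 323 CPM, and the inhibitor gene Timp3, at 309 and 357 against 484 and 488 CPM, with an FDR of 0.227 and 0.218. With the 3 other center libraries the differences were 4.33 (FDR = 0.000981) for Mmp9, 5.18 (FDR = 0.0278) for Mmp10, 1.44 (FDR = 0.0435) for Mmp19 and -1.73 (FDR = 0.000225) for Timp3. Mmp14, the membrane-bound collagenase gene, had a difference of 0.44 ± 0.22 SE (FDR = 0.364). With the 3 other center libraries the difference of Mmp14 was 0.90 (FDR = 0.0234) and that of Mmp3 was -0.55 (FDR = 0.614).

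**Figure D3:**
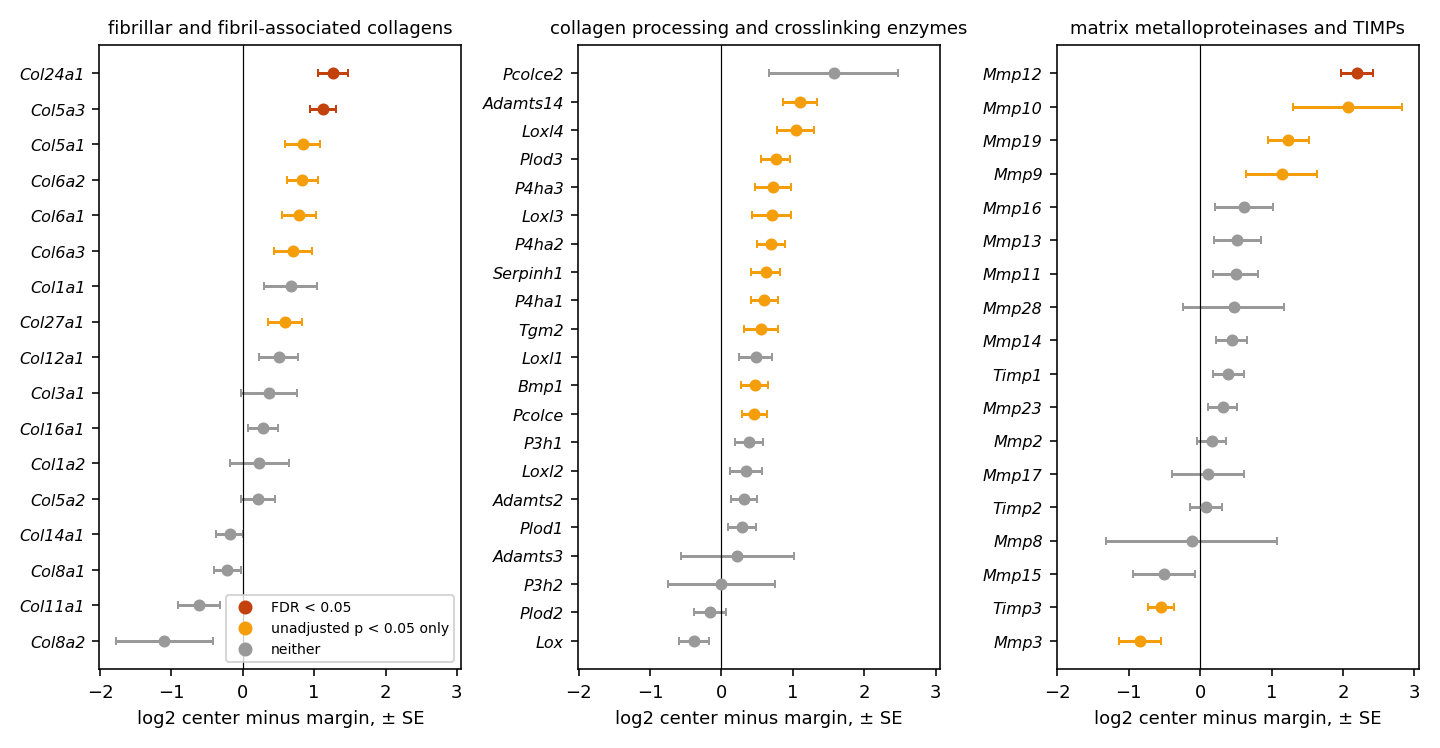
Each point is the log2 difference of center minus margin dermis of 1 gene and the bar its SE, for 17 fibrillar and fibril-associated collagens, 21 collagen processing and crosslinking enzymes and 18 matrix metalloproteinases and TIMPs. Red marks an FDR under 0.05, reached by Col24a1, Col5a3 and Mmp12, and orange an unadjusted p under 0.05 only.

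The margin dermis held transcripts of grown hair follicles that were at or near zero in the center. Tchh, which codes for trichohyalin, the granule protein of the inner root sheath, was at 1.25 and 0 CPM in the center libraries and 342 and 266 CPM in the margin libraries and had the lowest FDR of all genes (log2 difference -8.86 ± 0.51 SE, FDR = 8.65e-06). Krt71, an inner root sheath keratin gene, was at 0.193 and 0 CPM in the center libraries and 148 and 175 CPM in the margin libraries, and its partner Krt25 at 3.13 and 0 CPM in the center libraries and 134 and 137 CPM in the margin libraries. Krt27 had no read in either center library and 113 and 110.2 CPM in the margin, at least 722-fold lower in the center. Krt73, another keratin gene of the sheath, was likewise without a read in the center and at 36.2 and 55.1 CPM in the margin, at least 295-fold lower. Such bounds set the center to 3 counts a library. Prr9, a proline-rich gene of the cornified cluster that the hair list did not hold, had 124 and 112 CPM in the margin and no read in the center, at least 762-fold lower (FDR = 0.000133), the largest bound among genes without a read in the center. The summed level of the 22 hair follicle keratinocyte genes was 4.62 and 10.5 CPM in the center and 1154 and 1237 CPM in the margin. The 21 that were tested reached the filter only in the margin, so their directions had to be negative and are no support beyond these levels.

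Keratin-associated proteins, which bind hair keratins together in the shaft, showed the same split. The 54 such genes in the table, gathered by name after values were seen, summed to 0 and 1.76 CPM in the center and 388 and 317 CPM in the margin. Krtap8-1 was at 42.6 and 36 CPM in the margin, Krtap15 at 29.1 and 30.0 CPM, Krtap7-1 at 24.1 and 32.3 CPM and Krtap11-1 at 25.4 and 20.6 CPM. All 4 were without a read in the center, and at least 254-fold, 191-fold, 182-fold and 149-fold lower there. The 47 tested keratin-associated protein genes again reached the filter only in the margin, so that their direction was fixed and the count of calls among them is no support. Reads shared by near-identical members of this family cannot be separated, so single members are uncertain.

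Genes of the interfollicular epidermis were lower in the center as well. Perp, which codes for a desmosomal protein of stratified epithelia, was at 17.3 and 23.6 CPM in the center libraries and 363 and 453 CPM in the margin libraries (log2 difference -4.32 ± 0.26 SE, FDR = 3.35e-05). Krt10 and Krt1, the keratin pair of differentiating layers, were at 93.8 and 135 and at 118 and 150.0 CPM in the center, and at 580.4 and 1374 and at 385 and 946 CPM in the margin, with an FDR of 0.00387 and 0.0131. Krt17, a keratin gene of follicles and of activated epidermis, was at 0.819 and 14.2 CPM against 159 and 185 CPM (FDR = 0.00249). In these 4 genes all center values lay below all margin values, as they did for the basal keratin gene Krt14, at 259 and 38.5 CPM against 389.9 and 481 CPM, whose difference did not pass (FDR = 0.238). The groups had no overlap in 44.9% of all genes tested. Some late differentiation genes were without a read in the center. Flg2 and Hrnr, of the filaggrin family, were among them, at 70.8 and 118 and at 59.8 and 113 CPM in the margin, at least 611-fold and 559-fold lower in the center. For the suprabasal keratin gene Krt77 the margin held 45.8 and 157 CPM, at least 655-fold more than the center. Lor (loricrin) was at 0 and 3.97 against 60.9 and 142 CPM. Margin levels of the cornified envelope genes Kprp, Lce1m and Lce1a1, of the epidermal transcription factor gene Grhl1 and of the lipoxygenase gene Alox12e lay between 22.3 and 60.0 CPM, with no read in the center. Margin library 2 was the higher of the margin libraries in each of Flg2, Hrnr, Krt77, Lor, Krt10 and Krt1.

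The 20 keratinocyte markers summed to 776 and 532 CPM in the center and 3021 and 5187 CPM in the margin, and 11 of the 20 were called lower, against 0.735% of all genes, while 4 of the 20 reached the filter only in the margin. On a scale set over dermis and epidermis together, this sum was between 398 and 3891 CPM in the 4 dermis libraries and between 222579 and 296823 CPM in 4 libraries of wound epidermis. The 45 cornified envelope genes, gathered by name after values were seen, summed to 6.55 and 87.6 CPM in the center and 619 and 1073 CPM in the margin. Tchh, Prr9, Flg2, Hrnr, Lor, Kprp, Lce1m and Lce1a1 lie together on chromosome 3 (chr3:92080271-93449077, GRCm38). Of the 108 genes called lower, 73 had a higher mean in the epidermis libraries than in the margin dermis, while 31 were lower in all 4 epidermis libraries than in both margin dermis libraries. Krt27 and Tchh were of the second kind. On the scale over both tissues, Krt27 was at 85.4 and 82.7 CPM in the margin dermis and at most 5.88 CPM in any epidermis library, and Tchh at 258 and 199.7 CPM against at most 66.2 CPM. The part of this keratinocyte and follicle RNA in the other differences between center and margin was not tested.

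**Figure D4:**
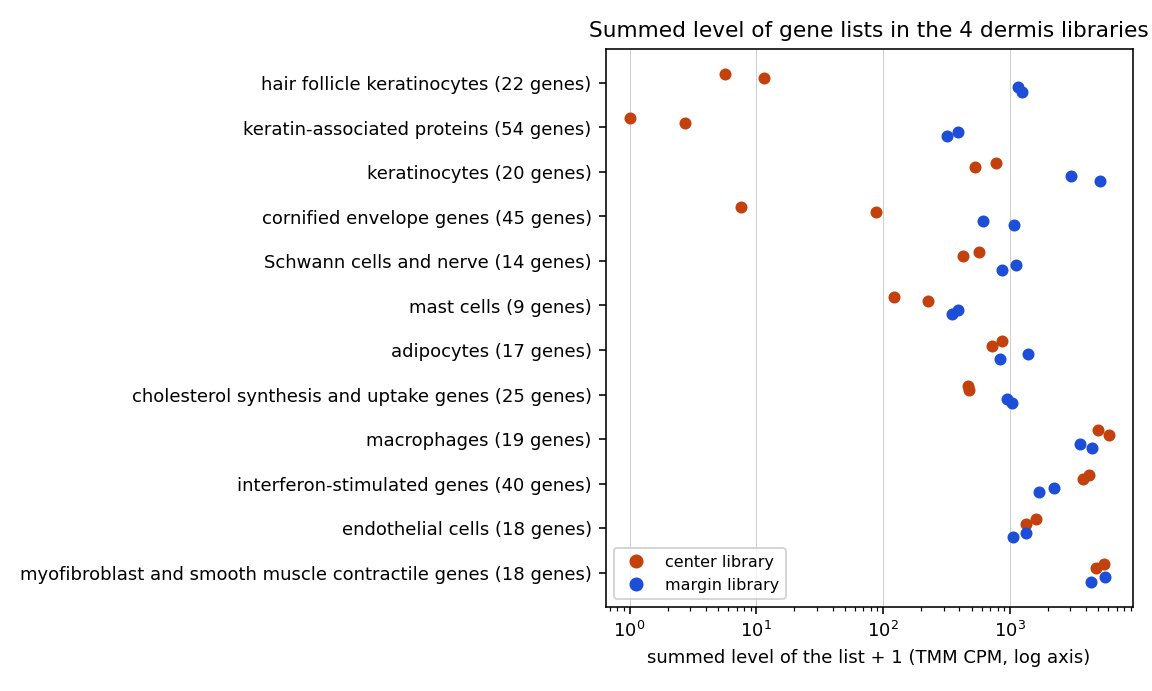
Summed level in CPM plus 1, on a log axis, of 12 gene lists in each of the 2 center and 2 margin dermis libraries. The lists of follicle keratinocytes and keratin-associated proteins are farthest apart, keratinocyte, cornified envelope, Schwann, mast cell and cholesterol lists are lower in both center libraries, macrophage and interferon lists are higher, the adipocyte and contractile lists overlap, and the endothelial list nearly does.

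Of 14 Schwann cell and nerve genes, 7 had an unadjusted p under 0.05 and a lower level in the center, against 10.7% of all genes. Of these, 2 were called at the FDR, against 0.735% of all genes called lower. Cdh19, a cadherin gene of Schwann cell precursors, was at 15.5 and 14.2 against 32.4 and 52.6 CPM (FDR = 0.128). Mast cell protease genes went the same way below the FDR. Cma1 was at 13.3 and 36.6 CPM in the center and 99.2 and 75.4 CPM in the margin, and Cpa3 at 9.34 and 41.9 against 96.1 and 126 CPM, with an FDR of 0.0666 and 0.0679. Among the adipocyte markers, 11 of 17 were tested, all with a negative difference and 5 of them at the filter level only in the margin. Fabp4, the fatty acid binding protein of adipocytes and capillaries, was at 145 and 109 against 361 and 169 CPM (FDR = 0.182).

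In the pathway of cholesterol synthesis, 4 genes fell in the center. Cyp51, the lanosterol demethylase gene, was at 34.7 and 27.8 CPM in the center libraries and 125 and 113 CPM in the margin libraries, and Msmo1, which acts in the next steps, at 29 and 18.2 CPM in the center libraries and 81.9 and 127 CPM in the margin libraries. Hmgcs1, which makes the precursor HMG-CoA, was at 60.9 and 74.4 CPM in the center libraries and 145 and 172 CPM in the margin libraries. All center values lay below all margin values in these 3 genes, with an FDR of 0.0051 for Cyp51, 0.0121 for Msmo1 and 0.0306 for Hmgcs1. The groups had no overlap in 44.9% of all genes tested. Of 25 such genes, a list drawn up after values were seen, 24 were tested, 4 were called lower against 0.735% of all genes, 10 had an unadjusted p under 0.05 and all 24 had a negative difference, with a median of -1.11. As the values were known when this list was made, these counts describe it and are no further support. Squalene epoxidase (Sqle) was at 18.3 and 15.8 against 51.1 and 47.1 CPM (FDR = 0.0702). The list summed to 465 and 479 CPM in the center and to 956 and 1049 CPM in the margin. On the scale over both tissues, it summed to at most 787 CPM in dermis and to between 2283 and 3835 CPM in epidermis. It moved with the keratinocyte sums given above, and their part in it was not tested.

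The promoter window of Hmgcs1 is shown because the sterol-responsive genes moved together and it holds the letters TCACNCCA, a form of the sterol regulatory element, once in the 250 bases before the start (chr13:119690101-119690350, plus strand, GRCm38.p6, RefSeq, searched on both strands, match in capitals).
Hmgcs1: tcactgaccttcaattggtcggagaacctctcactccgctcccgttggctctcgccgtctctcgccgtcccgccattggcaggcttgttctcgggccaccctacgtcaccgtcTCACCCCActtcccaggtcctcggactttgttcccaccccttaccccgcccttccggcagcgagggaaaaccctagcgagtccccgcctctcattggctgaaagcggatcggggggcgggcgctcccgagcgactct
This motif stood in 3 of the 16 tested cholesterol genes with a window (18.8%), in 458 of 11135 tested genes with a window (4.11%) and in 3.67% of all windows. Of the called genes named above, Hmgcs1 and Msmo1 had a match and Cyp51 had none. Here too a match describes letters and is not a measured binding site.

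Among fibroblast genes, Clec3b, which codes for tetranectin and marks fascial and adventitial fibroblasts, was at 8.48 and 1.6 CPM in the center libraries and 54.2 and 60.5 CPM in the margin libraries (log2 difference -3.48 ± 0.50 SE, FDR = 0.00884). Pi16, another gene of those fibroblasts, was at 10.8 and 2.99 CPM in the center libraries and 34.9 and 28.1 CPM in the margin libraries (FDR = 0.114). Clec3b was the 1 gene of 19 on the list of fibroblast lineage and PDGF genes with an FDR under 0.05, against 0.735% of all genes called lower, and the list median was 0.16. The alarmin gene Il33 was at 25 and 27.6 CPM in the center libraries and 67.6 and 107 CPM in the margin libraries (log2 difference -1.73 ± 0.31 SE, FDR = 0.0281). The eosinophil chemokine gene Ccl11 and the monocyte chemokine gene Ccl8 were at 15 and 9.08 and at 64.7 and 50.2 CPM in the center, below 38 and 45.8 and 138 and 108 CPM in the margin, with an FDR of 0.0757 and 0.0759. Ccl9, which rose, and Il33 were the 2 called genes of the 32 tested chemokines and cytokines, 1 in each direction, against 0.116% of all genes called higher and 0.735% called lower.

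The genes of the dermal condensate and papilla, whose cells instruct new follicles, showed no member with an FDR under 0.05 in edgeR's test. DESeq2 called 2 of them lower, and 555 of all 14698 genes lower. Of 37 listed, 32 were tested, 2 had an unadjusted p under 0.05 and a higher level in the center (5.11% of all genes) and 6 had a lower level (10.7%). The higher ones were Cxcr4, a chemokine receptor gene of early condensates, at 86.6 and 129 CPM in the center libraries and 62.1 and 52.9 CPM in the margin libraries, and Crabp1, a retinoic acid binding protein gene of dermal papillae and upper dermis, at 438 and 321 CPM in the center libraries and 268 and 254 CPM in the margin libraries. Their log2 differences were 0.91 ± 0.26 SE and 0.54 ± 0.20 SE, with an FDR of 0.159 and 0.242. The lower ones included the growth factor gene Fgf7, at 0.193 and 2.27 CPM in the center and 8.41 and 11.4 CPM in the margin, and the Wnt inhibitor gene Wif1, at 3.82 and 2.64 CPM in the margin and without a read in the center. With the 3 other center libraries, the difference of Fgf7 turned to 1.07. Foxd1 was likewise read only in the margin, at 2.06 and 0.893 CPM. Of the 6, 5 reached the filter only in the margin, and 5 listed genes, among them Alx4, Corin, Dkk1 and Nrg2, were too low to be tested. Alongside them the follicle keratinocyte genes were at most 10.5 CPM in sum in the center and at least 1154 CPM in the margin. The study reported that dermal condensate signature genes were enriched among its genes differing between center and margin dermis, with members higher in the center. It took that signature from published work and set a p or FDR under 0.05, so gene list and threshold are not those used here.

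In the Wnt pathway, Lgr5, a receptor for R-spondins that marks follicle stem cells and some dermal cells, was the 1 gene of 42 tested with an FDR under 0.05, against 0.735% of all genes called lower. It was at 70.8 and 34.4 CPM in the center libraries and 151 and 158 CPM in the margin libraries (log2 difference -1.55 ± 0.30 SE, FDR = 0.0427), and on the common scale at most 0.391 CPM in any epidermis library. Of the 42, 9 had an unadjusted p under 0.05 and a lower level in the center, against 10.7% of all genes, and 2 a higher level, against 5.11%. The secreted Wnt inhibitor gene Sfrp4 was at 2.65 and 13.9 CPM in the center libraries and 41.7 and 40.9 CPM in the margin libraries (FDR = 0.0793), and Sfrp2 at 149 and 134 against 376 and 186 CPM (FDR = 0.175). Apcdd1, an inhibitor gene that Wnt signalling itself induces, was higher in both center libraries, at 246 and 179.8 CPM in the center libraries and 118 and 113 CPM in the margin libraries (FDR = 0.104). Such a gap was seen in 44.9% of all genes tested.

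The transcription factors of epithelial-mesenchymal transition did not pass the test in dermis. The study followed such factors in epidermis and in spiny mouse dermis. It also stained Twist1 protein in center and margin dermis of laboratory mouse wounds, which RNA levels do not measure. Twist1 was at 116 and 159 CPM in the center libraries and 126 and 110.3 CPM in the margin libraries, with overlapping groups (log2 difference 0.22 ± 0.22 SE, FDR = 0.716). Twist2 was at 75.7 and 64.4 CPM in the center libraries and 72.2 and 34.8 CPM in the margin libraries (FDR = 0.639) and Snai2 at 14.8 and 37.9 CPM in the center libraries and 41.6 and 37.8 CPM in the margin libraries (FDR = 0.545), also with overlap. For Snai1, Zeb1 and Zeb2 the differences were 0.30 ± 0.40, 0.12 ± 0.22 and 0.013 ± 0.22 SE. The difference of Snai1 with the 3 other center libraries was 1.99 (FDR = 0.00557). None of the 8 listed factors had an unadjusted p under 0.05 in edgeR's test or an FDR under 0.05 in DESeq2, and the directions of Twist1, Twist2, Snai2, Zeb1 and Zeb2 turned under at least 1 alternative. Contractile genes of myofibroblasts were also without a common direction. Acta2 (smooth muscle actin) was at 257 and 188 CPM in the center libraries and 331 and 182 CPM in the margin libraries (log2 difference -0.20 ± 0.28 SE, FDR = 0.802), and its difference turned to 2.52 (FDR = 0.0019) with the 3 other center libraries. Of 25 cell cycle genes, 2 had an unadjusted p under 0.05 on the higher side, against 5.11% of all genes, and 2 on the lower, against 10.7%. The proliferation marker gene Mki67 was at 214 and 240.4 against 131 and 186 CPM (FDR = 0.276), while Pcna was at 39.1 and 26 against 56.7 and 59.3 CPM (FDR = 0.236). Of the AP-1 and immediate early genes, Fosl1 was at 8.14 and 8.67 CPM in the center and 0.687 and 0.936 CPM in the margin (FDR = 0.144), and Klf4 at 35.4 and 33.8 against 58.5 and 88.9 CPM (FDR = 0.138).

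The center-margin difference of the dermis was set against that of the epidermis, for which 2 center and 2 margin libraries of wild-type wounds on the same day were available, sequenced as read pairs where the dermis was single-end. An interaction term was tested in 15531 genes over the 8 libraries. The difference was more positive in dermis for 21 genes (0.135%) and more negative for 519 (3.34%) at an FDR under 0.05. The median interaction over all genes tested was itself negative, at -0.305 in log2. It was -0.158 with RLE scaling and -0.031 over genes with at least 10 counts in every library, so the balance of directions depends on scaling and filter. Cwc22 was among the former, with a log2 difference of 1.29 in dermis and -1.75 in epidermis (interaction 2.90 ± 0.35 SE, FDR = 0.00217). Sema3d, a guidance cue gene, Anpep, an aminopeptidase gene, and Kcnj2, a potassium channel gene, had interactions of 2.27, 2.07 and 3.11, and each was lower in the epidermis of the center while its dermis difference did not pass. For Tchh the differences were -8.86 and 1.45, dermis first, with an interaction FDR of 0.00106. Prr9, without a read in the center dermis, had an epidermis difference of 0.50. Col5a3 was higher in the center of both tissues and more so in epidermis (1.12 and 3.19, interaction FDR = 0.00986), and Isg15 likewise (1.83 and 5.08, FDR = 0.0276). Twist2 had a difference of 0.39 in dermis and 3.01 in epidermis (interaction FDR = 0.0307). Beside these, on the scale over both tissues, the fibrillar collagen list summed to 9184 and 7543 CPM in the epidermis center and 3153 and 1114 CPM in the epidermis margin, and 1 epidermis margin library held Xist where the other 7 libraries had at most 1 read of it. Their part in the interaction was not tested.

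**Figure D5:**
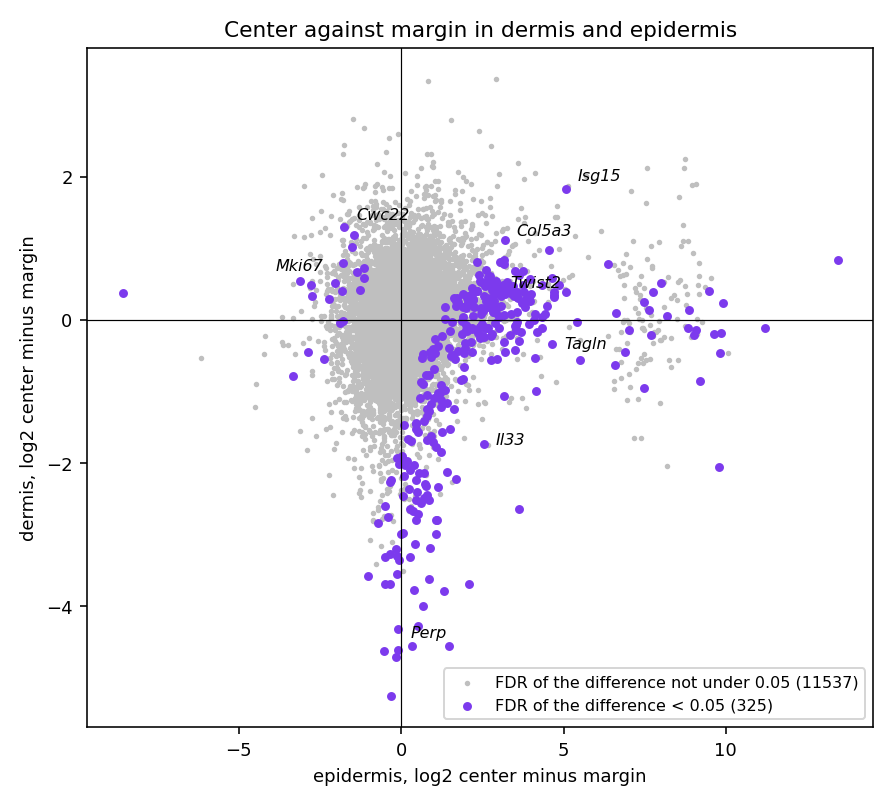
Each point is 1 of 11862 genes at the filter level in both dermis regions, with the log2 difference of center minus margin in epidermis on the horizontal and in dermis on the vertical axis. Purple marks the 325 genes whose differences differed between the tissues with an FDR under 0.05, most of them above zero in epidermis and near zero in dermis, or below zero in dermis and near zero in epidermis.

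K14-Cre-Twist1 mice, in which a keratin 14 promoter drives the Cre that deletes Twist1 in keratinocytes, were compared with the other 3 wild-type center libraries, none of which entered the comparison of regions. Of 14163 genes, 8 had an FDR under 0.05 (0.0565%). The 17 genes that were higher in the center of wild-type wounds were all tested here. Of them, 8 had a negative difference in K14-Cre-Twist1 dermis, none of these with an unadjusted p under 0.05 in edgeR's test (4.54% of all genes were negative with such a p), and Lpin3 was higher with such a p, as were 6.98% of all genes. Of the 108 genes lower in the center, 75 were tested here. In K14-Cre-Twist1 dermis 61 of these 75 were higher with such a p, against the same 6.98%. A gene that reached the filter only in K14-Cre-Twist1 dermis had to be higher there. Grhl1 was such a gene, at 2.57 and 109 CPM and without a read in the 3 wild-type libraries. Such genes were not counted apart, so the 61 of 75 describe these genes and are no support. Mmp12 was at 211 and 93.9 CPM in K14-Cre-Twist1 dermis and 19.1, 83.1 and 84.6 CPM in these wild-type libraries (difference 1.30 ± 0.58 SE, FDR = 0.441). Ifit1 was at 47.5 and 11.7 CPM against 14.3, 8.94 and 202 CPM, so that 1 wild-type library stood far above the other two. The summed level of the keratinocyte list was 1154 and 38576 CPM in the 2 K14-Cre-Twist1 libraries and between 17.3 and 62.8 CPM in the 3 wild-type ones. The part of this keratinocyte RNA in the 61 differences was not tested. The K14-Cre-Twist1 libraries held reads of Y-linked genes and the wild-type ones Xist, so that genotype and this difference cannot be told apart.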

How the data were processed

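Per the labels and the study's methods, dermis RNA was made into TruSeq libraries and read as strand-specific single-end 75-base reads, and epidermis as pairs. The submitters' processing notes name STAR 2.4.1d, HTSeq 0.6.0 and mm10. The authors deposited raw read counts per gene symbol, with no normalization and no filter, and the 5 summary lines of each table were left out. The strand option of the counting is not given in the sources used here, and reads shared by near-identical or overlapping genes cannot be separated.

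Counts were analysed with edgeR 4.0.16, which draws on limma 3.58.1, under R 4.3.3: TMM scaling, filterByExpr at its default minimum of 10 counts, the quasi-likelihood test with a prior count of 0.125, and Benjamini-Hochberg adjustment (FDR) over all tested genes, called at 0.05. The SE of a log2 difference is its size over the square root of F. CPM of dermis alone and of dermis with epidermis were scaled separately. Positions and promoters are of RefSeq on GRCm38.p6, matched by symbol for 23535 of 24500 genes. The code was tested on simulated counts.

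Named are the 12 largest changes a direction among called genes with at least 1 CPM and no overlap, up to 4 members of a list with the lowest p, textbook markers, the Twist, Snai and Zeb genes and the leading interaction genes, though not each is given, and some members were added after values were seen. The members and lists were chosen with earlier results of these data known. Alternatives were other tests (DESeq2 1.42.0 among them), scalings, filters, center libraries and leaving out libraries. Spiny mouse libraries were not used. Some genes are not reported here.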

Additional observations from a re-analysis of the deposited data

Results flagged for a closer look

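The difference between center and margin differed between dermis and epidermis for 30 of the genes named above, by the interaction test of edgeR over 8 libraries (FDR under 0.05). The values below are log2 differences of dermis minus epidermis, whose median over all genes tested was -0.305. In follicle and epithelial genes they were -10.46 for Tchh, -15.34 for Prr9, -6.15 for Krt17, -12.76 for Grhl1 and -4.38 for Perp. In late differentiation genes they were -11.86 for Flg2, -14.20 for Hrnr, -10.85 for Lce1a1, -10.74 for Lce1m, -11.71 for Kprp and -6.41 for Lor. Values of Prr9, Grhl1, Flg2, Hrnr, Kprp, Lce1a1 and Lce1m depend on the prior count, since these genes had no read in the center dermis.

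In lipid genes the values were -3.00 for Msmo1, -2.12 for Sqle, -1.95 for Cyp51 and -4.36 for Fabp4. In genes of matrix, interferon response, mesenchyme and contraction they were -2.20 for Col5a3, -2.47 for Col5a1, -3.37 for Isg15, -2.75 for Twist2, -3.16 for Acta2 and -2.02 for Crabp1. In Il33, Arg1 and Klf4 they were -4.42, -6.42 and -1.83. Genes more positive in dermis were Cwc22 at 2.90, Kcnj2 at 3.11, Mki67 at 2.403, Sema3d at 2.27, Anpep at 2.07 and Timp3 at 1.68. Groups held 2 libraries each, so no library could be tested as standing apart from its group.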

How the results depend on the processing

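The number of calls depended on the test and on the libraries more than on the scaling, while the 125 calls kept their direction under each alternative in which they were tested, except that 122 did with the second set of center libraries; 66 of them were tested with a stricter filter or over genes of both regions. Of the 17 higher genes, 7 were also called with the second set, 5 with all 5 center libraries, 4 under the edgeR 3 form and 0 with all dermis libraries in one fit, and of the 108 lower ones 106, 100, 47 and 5. Among 107 named genes the second set gained 30 calls and lost 8 in the same direction, beside those that turned. In the comparison of dermis regions, genes called (higher and lower) numbered 886 (151 and 735) in the likelihood ratio test, 497 (93 and 404) in the exact test, 54 (4 and 50) under the older edgeR 3 form of the main test and 738 (183 and 555) in DESeq2. They were 5 (0 and 5) with all laboratory mouse dermis libraries in one fit, 323 (30 and 293) with all 5 wild-type center libraries and 2857 (1315 and 1542) with the second set of 3. That set differs from the margin libraries in sex-linked genes and may differ in mouse line. At least 10 counts in every library gave 29 higher genes, and an alternative added after the values were seen, FDR over genes at the filter level in both regions alone, gave 58 calls, 44 of them lower. Leaving out 1 library gave 19 to 241 calls, 2 to 39 higher and 17 to 202 lower.

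The interaction gave 1485 calls (113 and 1372) in the likelihood ratio test and 1125 (129 and 996) in DESeq2, 12 positive ones under the edgeR 3 form, 33 positive ones with RLE scaling, 204 (179 negative) at 10 counts in every library, and 167 to 1343 (1 to 143 positive, 162 to 1200 negative) with 1 library left out, lowest without dermis margin library 2 and highest without epidermis margin library 2. K14-Cre-Twist1 dermis gave 787 calls (399 and 388) in DESeq2 and 1 to 3353 (0 to 1573 and 1 to 1780) with 1 library left out, 3353 without K14-Cre-Twist1 library 1 and 1 or 2 when 1 of the wild-type libraries was left out. A library left alone in a group was assumed to vary like the other groups. The causes were not tested.

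Directions turned, in log2, with the second set for Mmp12 (-0.43), Cwc22 (-0.41), Kcnj2 (-0.45), Arg1 (2.53), Fgf7 (1.07), Acta2 (2.52), Twist1 (-0.65), Twist2 (-0.59), Zeb2 (-0.38) and Snai2 (0.018), with all 5 center libraries for Arg1 (1.83), Fgf7 (0.43), Acta2 (1.92), Twist1 (-0.22), Twist2 (-0.10) and Zeb2 (-0.19), and with library size alone for Zeb2 (-0.087). With 1 library left out, Twist1 ranged from -0.025 to 0.43, Twist2 from -0.044 to 1.01, Zeb1 from -0.14 to 0.35, Zeb2 from -0.34 to 0.30 and Acta2 from -0.57 to 0.29. No paired analysis was possible because the replicate numbers are in accession order and the labels do not say which center and margin came from 1 mouse.

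A difference that missed the FDR in edgeR's test does not show that levels were alike, since other tests called more genes in the same 4 libraries.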
